A study of Homo sapiens with 16 samples.

Results

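Protein kinase A (PKA) is the cAMP-dependent protein kinase. This account describes where its subunit genes, a set of its anchoring proteins and its best known nuclear target carried N6-methyladenosine (m6A) signal in prostate cancer cells. The 10 genes were the catalytic subunits PRKACA and PRKACB, the regulatory subunits PRKAR1A, PRKAR1B, PRKAR2A and PRKAR2B, the anchors AKAP1, AKAP9 and AKAP13, and the transcription factor CREB1. They were selected on measured values, because PRKACB held an intronic region called in the lists of a single cell line. Regions of the deposited merged list were assigned to a gene when they overlapped its annotated span, and peaks were taken from the list of each immunoprecipitated (IP) library. The 10 genes held 40 of the 36970 merged regions, and 39 of the 40 were called in at least 1 list.

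The 16 libraries came from C4-2B, a human prostate cancer line sensitive to enzalutamide, and from MDV-R, an enzalutamide-resistant line that was derived from C4-2B by serial exposure and kept in the drug. Enzalutamide is an androgen receptor inhibitor. Both lines carry a wild-type label for genotype and were harvested at day 3. Each contributed 4 replicates of an anti-m6A IP library and 4 of an input library without antibody. Nothing in the labels says whether replicates came from separate cultures, so p-values here measure only the spread between these libraries. The resistant libraries read MDVR in the cell line field and carry the name T24R2 in their titles, and the cell line field was followed. Of 9 prostate luminal marker genes, 8 held a region called in all 4 MDV-R lists and 6 a region called in all 4 C4-2B lists. The gap lay in KLK3 and TMPRSS2, each called in 3 of the 4 C4-2B lists. C4-2B replicate 1 is the shortest list, with 13191 peaks, and whether list size made the gap was not tested. The same share over all genes was not taken. For 7 urothelial marker genes these counts were 2 and 1, and for 6 neuroendocrine marker genes both were 0. Marker calls do not settle which name the resistant libraries should carry.

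The second messenger cAMP binds the regulatory subunits of PKA, which then release active catalytic subunits. A-kinase anchoring proteins (AKAPs) hold the regulatory subunits at defined sites in the cell, AKAP1 at the mitochondrial outer membrane and AKAP9 at the centrosome and Golgi. AKAP13 anchors PKA and is also an exchange factor for the small GTPase RhoA. CREB1 is phosphorylated by the catalytic subunit and activates genes with cAMP response elements. m6A is the most abundant internal modification of mRNA. It is laid down at a short motif with a central A and C, and is known to gather near stop codons and in long internal exons.

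Depth was recovered from the peak statistics, since no counts were analysed here. The IP libraries of C4-2B held 0.864 to 1.21 M tags (M for mega) at the caller's stage and those of MDV-R held 0.896 to 1.03 M tags. Input depth differed between the lines, with 0.901 to 1.23 M tags in C4-2B and 1.60 to 2.97 M tags in MDV-R. MDV-R replicate 3 had the shallowest MDV-R input. C4-2B replicate 1 stood apart with 13191 peaks, against 23254 to 30645 in the other 7 lists. The number of regions called in all lists is given with and without it. Class, marker and pathway counts over all lists include it. How input depth bears on the calls was not tested.

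The sequences below are the reference letters (hg38, 5′ to 3′ on the strand of the gene) around the GGAC motif nearest to the summit, which is the point of strongest signal. They are shown for a choice of regions that leans toward those with GGAC near the summit. Shared regions not shown had it 106 nt away in AKAP1 exon 2 and 76 nt in AKAP9 exon 41. It lay 81 nt away in AKAP13 exon 7 and 139 nt in the intron 7 region of CREB1. Of the 12 shared regions, 7 held GGAC within 50 nt of the strongest summit. Capitals mark GGAC, the commonest form of the m6A motif, with the candidate A just before the C.
PRKACB, 5′ region, chr1:84078852-84078872, + strand: tcctgagtGGACaaccctgcc
PRKACB, intronic region, chr1:84126919-84126939, + strand: tcttgcctGGACttttgcagt
PRKAR1B, 3′ UTR, chr7:550292-550312, - strand: cagcgtgaGGACtgccccttc
PRKAR2A, last exon, chr3:48751663-48751683, - strand: ccctgcatGGACatcatgaag
AKAP9, exon 31, chr7:92079658-92079678, + strand: agtgcaaaGGACttagaactt
AKAP13, exon 35, chr15:85741175-85741195, + strand: cagcgccaGGACctggccaac
AKAP13, exon 36, chr15:85743588-85743608, + strand: gggtcattGGACtcagaactt
AKAP13, 3′ UTR, chr15:85744892-85744912, + strand: actgcccaGGACtctcaggtt
CREB1, 3′ UTR, chr2:207597088-207597108, + strand: tggaaaatGGACtggcttggc
In CREB1 the candidate A lay 1 nt from the summit, in the PRKACB 5′ region 4 nt, in AKAP9 exon 31 12 nt and in AKAP13 exon 36 15 nt. In the intronic PRKACB region it lay 49 nt away and in PRKAR2A 101 nt. A motif match is a description of the letters and not a mapped modification.

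Of the 10 genes, 7 held a region and 3 held none. PRKACA, PRKAR1A and PRKAR2B had no merged region and no peak in any of the 8 lists. Among all protein-coding genes, 11392 of 20033 held a region. The number of regions was 3 in PRKACB, 7 in PRKAR1B, 3 in PRKAR2A, 5 in AKAP1, 6 in AKAP9, 7 in AKAP13 and 9 in CREB1. The peak lists held 17, 28, 26 and 22 peaks in these genes for C4-2B replicates 1 to 4, and 28, 26, 30 and 31 for MDV-R replicates 1 to 4. The lowest of these counts belonged to the shortest list. Expression of the genes without a peak was not analysed here, so an unmethylated transcript and a poorly expressed one cannot be told apart.

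A region was said to be called in a list when a peak of that list overlapped it by at least 1 bp. Of the 39 called regions, 12 were called in all 8 lists, or 30.8%, beside 25.9% of the 36076 called regions of the whole series. A single region, in PRKACB, was called in the 4 C4-2B lists and in no MDV-R list, which is 2.56% of the 39 beside 1.22% overall. This pattern chose the genes, and nothing is read from it. No region showed the opposite pattern of 4 MDV-R lists and no C4-2B list, beside 3.68% overall. More MDV-R than C4-2B lists called 21 regions (53.8%, against 49.7% of all called regions), and 5 had more C4-2B calls (12.8%, against 18.4%). Calls in MDV-R lists alone, in 1 to 4 of them, were found for 12 of the 39 regions, or 30.8%, beside 28.3% of all called regions.

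**Figure D1:**
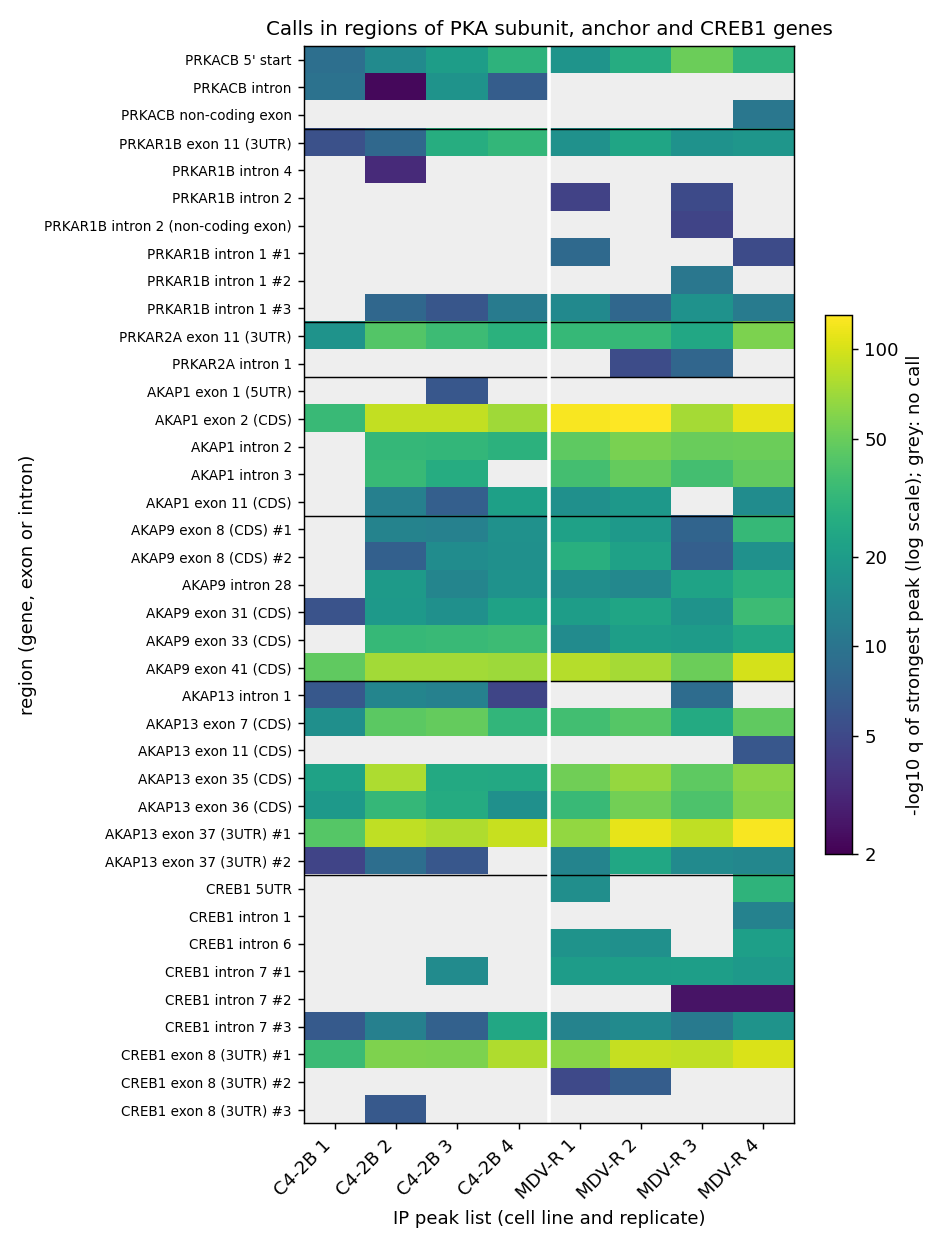
Strength of the strongest peak in each called region (rows, grouped by gene) in each IP list (columns), as -log10 of the q value on a log colour scale, with grey where no peak was called. The column of C4-2B replicate 1 has the most grey cells among regions that the other lists share, and the intronic PRKACB row is filled in the 4 C4-2B columns alone.

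C4-2B replicate 1 set much of the count shared by the 8 lists. Another 7 regions were called in 7 lists, or 17.9% of the 39, beside 9.77% of all called regions. Of these 7, 6 were missed by C4-2B replicate 1 and found by the rest. Without that list, 18 of 39 called regions were called in all remaining lists. Over the whole series the count of such regions rose as well, from 9327 of 36076 (25.9%) to 12314 of 36029 (34.2%). The gain is therefore not particular to these genes. The added regions were AKAP9 exon 8 (a pair of regions), AKAP9 exon 33, AKAP9 intron 28, AKAP1 intron 2 and PRKAR1B intron 1. The remaining region, far down the 3′ UTR of AKAP13, was missed by C4-2B replicate 4. At the other end, 15 regions were called in 1 to 3 lists. Their 23 peaks had a median of 12 IP tags at the summit, from 6 to 32, and a fold enrichment of 3.36 to 14.3.

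By feature, the 39 called regions had their strongest summit in coding sequence in 11 cases, in a 3′ UTR in 7, in a 5′ UTR in 2, in a non-coding exon in 2 and in an intron in 17. The 12 regions shared by all lists comprised 6 in coding sequence, 4 in 3′ UTRs and 2 in introns. Intronic summits were 43.6% of the called regions and 16.7% of those shared by all lists, each classed against its own gene. In the whole series the shares were 31.3% and 12.7%, classed over all genes. There, 11.9% of called regions were intergenic and 1.57% not annotated. Classed over all genes, an intronic CREB1 region falls in a 3′ UTR and the intronic AKAP13 region in a non-coding exon. The measures therefore differ, and no excess of intronic summits is read from these shares. Of the 17 intronic summits, 4 lay within 100 nt of an exon of the representative transcript, in AKAP1 and CREB1. With a single transcript per gene in place of all annotated ones, 5 regions changed class, among them all 3 regions of PRKACB.

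PRKACB encodes the beta catalytic subunit and has alternative 5′ exons (chr1:84078062-84238498, + strand). The strongest summits of its 3 regions all lay upstream of the second exon of the representative transcript. No summit fell in the shared coding exons or the 3′ UTR. The region called in the 4 C4-2B lists alone spanned chr1:84126518-84127301. It was intronic in the long transcripts and lay 17293 nt upstream of the start of the representative transcript ENST00000370685. Fold enrichment, the ratio of IP signal to local background at the summit, was 7.60, 3.03, 11.4 and 6.17 in C4-2B replicates 1 to 4. The -log10 q values were 9.59, 2.17, 17.0 and 6.81. Replicate 2 was the weakest of the 4 and sat close to the lowest value at which peaks were listed.

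These calls rested on few tags. The summits held 19, 12, 14 and 11 IP tags, or 15.7, 11.9, 15.0 and 12.7 CPM (IP tags at the summit scaled to the depth of the library). Local background, in units of the average of each library, was 3.33, 9.77, 1.00 and 3.28. In replicate 2 the higher background accompanied the lower enrichment at a similar tag level. Peaks at or below 15.7 CPM were 26.5% to 32.2% of each MDV-R list and 18.8% to 29.1% of each C4-2B list, so peaks this weak were listed in both lines. Among the 648 regions called in all 4 C4-2B lists with a mean of at most 15.7 CPM there, 20.8% were called in no MDV-R list, against 3.10% of the 9808 stronger ones. The level in MDV-R is unknown, since the lists hold no values where no peak was called, and at this depth the absence of a call does not show an absence of signal. With a -log10 q of at least 5 the region was called in 3 of 4 C4-2B lists. It was called in 2 when every list was cut to the 13191 strongest peaks. Neither setting can add an MDV-R call, so they bear on the C4-2B calls alone.

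Another PRKACB region, chr1:84077995-84079090, lay at the start of the gene and was called in all 8 lists. Its summit level was 19.9, 30.7, 30.01 and 31.3 IP CPM in C4-2B and 22.2, 30.8, 42.8 and 33.5 in MDV-R. Fold enrichment was 6.86, 6.26, 9.82 and 15.8 in C4-2B and 10.4, 13.1, 21.3 and 14.4 in MDV-R. The groups overlapped on both scales. No test is given for PRKACB, since its contrast between the lines chose the genes. The strongest summit of this region did not fall at the same place in each list. In C4-2B replicates 2 and 4 and MDV-R replicate 4 it fell between positions 84078139 and 84078302, and in the other 5 lists between 84078799 and 84078860. The last PRKACB region, chr1:84178903-84179194, had its summit in a non-coding exon and was called in 1 MDV-R list. That summit lay 94 nt from the nearest exon of the representative transcript, and the region reached into that exon.

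Among the regulatory subunits, PRKAR1B and PRKAR2A each had a single region shared by all 8 lists, in the last exon just after the coding sequence. PRKAR1B encodes the beta isoform of the type I regulatory subunit. Its region, chr7:550081 onward, had its strongest summit 109 nt after the last coding base in exon 11. The IP level was 16.6, 17.8, 23.6 and 25.5 CPM in C4-2B and 24.4, 31.9, 29.2 and 23.4 in MDV-R. The MDV-R values lay higher, although the groups overlapped. Relative to the median of each list, IP signal was higher in MDV-R by 0.31 on the log2 scale (SE 0.11, limma, adjusted p = 0.0426). The call was lost with the replicate number as a block (adjusted p = 0.0886) and without any of 5 of the 8 lists, with adjusted p up to 0.112. Local background was 6.66, 7.33, 1.57 and 1.00 in C4-2B and 4.83, 6.07, 9.38 and 3.71 in MDV-R, and did not pass (adjusted p = 0.152 by limma). The other 6 PRKAR1B regions lay in introns or a non-coding exon, 4 of them called in 1 or 2 MDV-R lists and no C4-2B list.

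PRKAR2A encodes the alpha isoform of the type II regulatory subunit, the form that most AKAPs bind. Its shared region had its strongest summit 16 nt after the last coding base, in exon 11. IP CPM were 96.1, 93.2 and 96.1 in C4-2B replicates 2 to 4 and 57.7, 61.6, 71.1 and 61.4 in MDV-R. Whole tags could not be recovered for C4-2B replicate 1, which the fit of IP signal and background left out here. The groups did not overlap, and IP signal in MDV-R was lower by a log2 difference of -0.57 (SE 0.08, limma, adjusted p = 3.6e-04). The call held in all 10 alternatives for this region, with differences from -0.61 to -0.54. Local background was 43.95, 46.8 and 55.8 in C4-2B and 15.7, 20.2, 43.2 and 6.19 in MDV-R, with a log2 difference of -1.07 (SE 0.38) that did not pass by limma (adjusted p = 0.102). Fold enrichment was 4.20, 6.21, 5.65 and 4.92 in C4-2B and 9.27, 8.03, 4.69 and 19.7 in MDV-R. Its centred difference was 0.41 (SE 0.28, limma, adjusted p = 0.47). Of the 3 quantities at PRKAR2A, IP signal alone passed the test. IP signal is the numerator of fold enrichment and is not divided by background. A change in methylation and a change in transcript amount cannot be told apart in it.

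**Figure D2:**
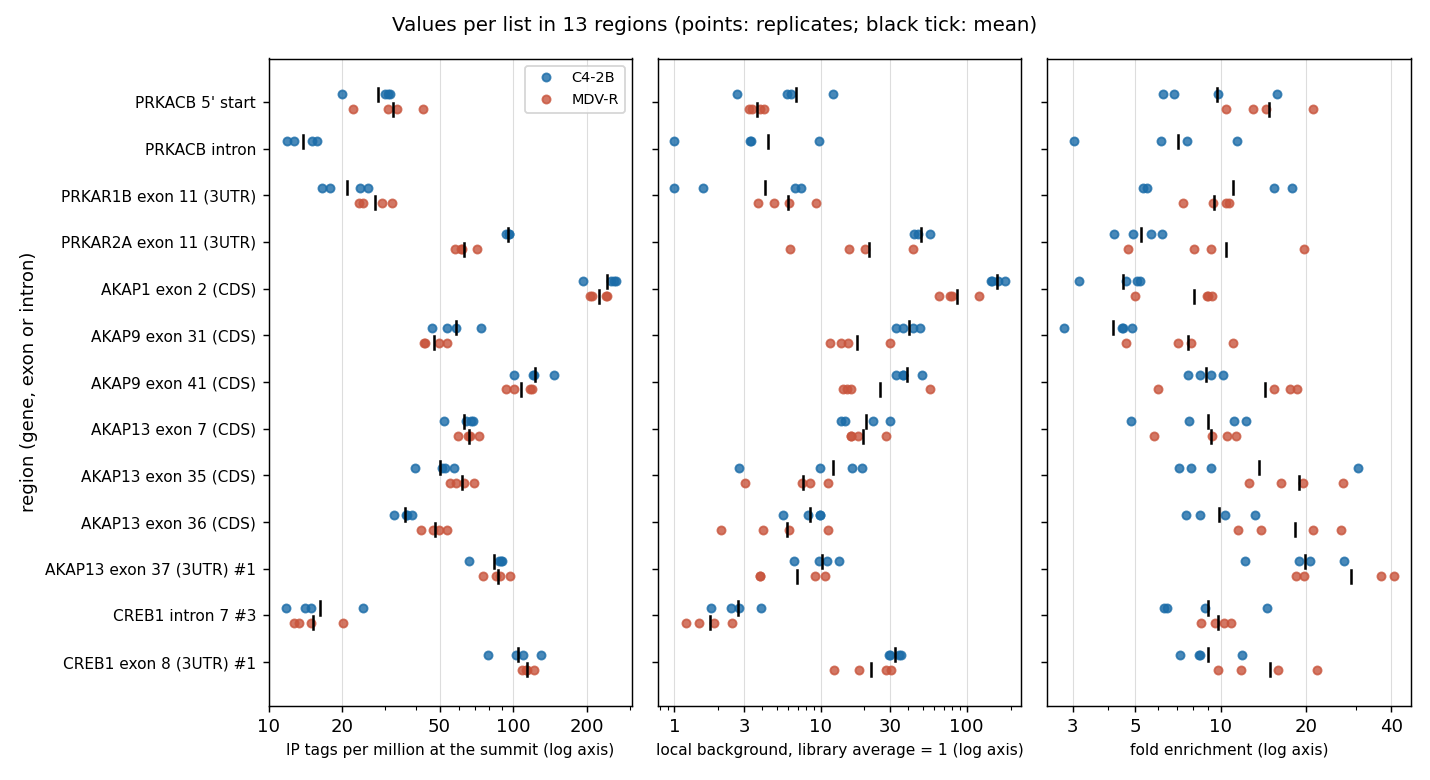
IP CPM, local background and fold enrichment at the summit (log axes) in the 12 regions called in all 8 lists and in the intronic PRKACB region, with a point for each replicate and a black tick at the mean. The intronic PRKACB region has C4-2B points alone, and at PRKAR2A the 3 recovered C4-2B values of IP signal, 93.2 to 96.1, lie above all 4 of MDV-R.

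The anchors held 18 called regions, 7 of them shared by all 8 lists, and those in internal exons lay in the longest ones. In AKAP1, exon 2 is the longest of 9 internal exons at 1738 nt and held the shared region. In AKAP9, regions were called in exons 8, 31, 41 and 33, which are the 4 longest of 48 internal exons at 2388, 1074, 669 and 486 nt. In AKAP13, they were called in exons 7, 35, 11 and 36, the 4 longest of 35 internal exons at 3178, 450, 371 and 334 nt, although exon 11 was called in 1 list. No other internal exon of these 3 genes held the strongest summit of a region. Over all genes, regions shared by all lists with a summit in an internal exon before the stop codon gave 1645 placements. The median length of the exons in these placements was 795 nt, and 36.7% were at least 1000 nt long. Of all 163992 internal exons of representative transcripts, 0.705% reach that length and the median is 123 nt. A longer exon offers more sequence in which a peak can fall, and no test was made of these shares.

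**Figure D3:**
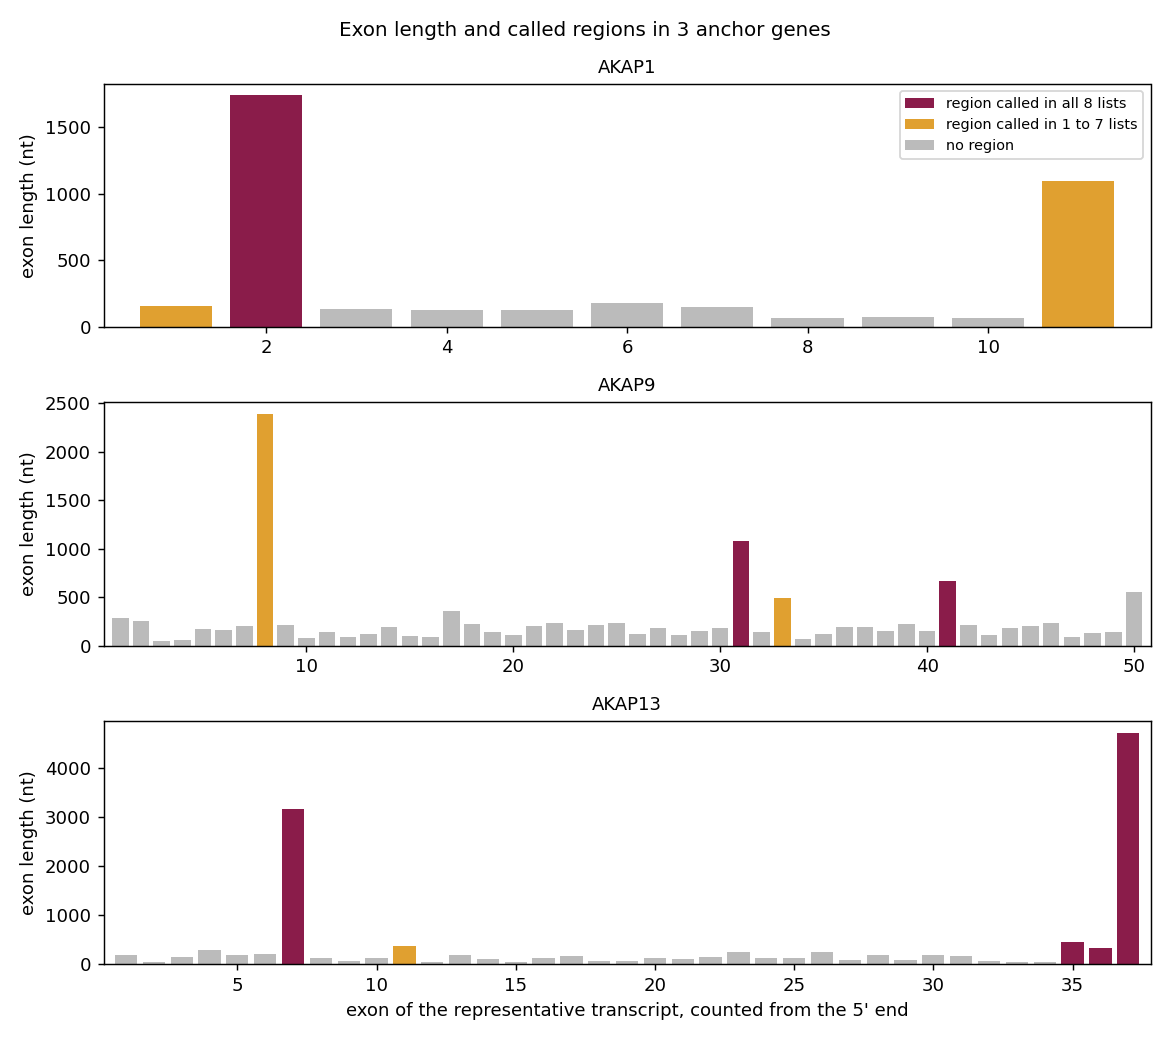
Length in nt of each exon of AKAP1, AKAP9 and AKAP13, counted from the 5′ end of the representative transcript, coloured by the largest number of lists that called a region with its strongest summit there. The coloured internal exons are the longest of each gene, exon 2 of AKAP1 at 1738 nt, exon 8 of AKAP9 at 2388 nt and exon 7 of AKAP13 at 3178 nt among them.

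AKAP1 exon 2 carried the highest IP level of the shared regions. It reached 194, 251, 263 and 258 CPM in C4-2B and 241, 243, 206 and 210 in MDV-R. The groups overlapped, and the centred log2 difference of -0.18 (SE 0.09) did not pass (limma, adjusted p = 0.127). Background was 182, 147, 149 and 164 in C4-2B and 77.3, 78.9, 122 and 64.3 in MDV-R, without overlap, and after centring the difference was -0.45 (SE 0.21, adjusted p = 0.175 by limma). The other AKAP1 regions included a region whose summit lay 66 nt before the end of the coding sequence in the last exon, called in 3 lists of each line, and intronic regions 71 and 54 nt from an exon, called in 7 and 6 lists.

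In AKAP9 both shared regions were in coding sequence. IP CPM in exon 31 were 46.4, 58.5, 53.6 and 74.1 in C4-2B and 43.3, 43.6, 49.7 and 53.5 in MDV-R. Background there was 47.8, 36.9, 33.0 and 42.9 in C4-2B and 15.5, 13.9, 29.8 and 11.5 in MDV-R, which did not overlap before centring. In exon 31 both quantities were lower in MDV-R after centring, IP signal by -0.36 (SE 0.10, limma, adjusted p = 0.0141) and background by -0.78 (SE 0.20, limma, adjusted p = 0.0289). The IP call held in all 10 alternatives. The background call held in 1 of 10, with adjusted p up to 0.0822. Fold enrichment in exon 31 was 2.79, 4.47, 4.53 and 4.87 in C4-2B and 7.07, 7.84, 4.64 and 11.02 in MDV-R, and its centred difference of 0.44 (SE 0.23) did not pass (limma, adjusted p = 0.318).

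AKAP9 exon 41 held 101, 121, 122 and 147 IP CPM in C4-2B and 101, 93.5, 118 and 119 in MDV-R. The centred difference in exon 41 was -0.27 (SE 0.10, limma, adjusted p = 0.0396), and this call was lost in 7 of 10 alternatives, with adjusted p up to 0.0982. The span of CYP51A1 on the opposite strand covers this summit, and the peak lists hold no strand. Background in exon 41 was 14.2, 15.2 and 16.1 in MDV-R replicates 1, 2 and 4 and 56.3 in replicate 3. AKAP9 exons 8 and 33 were called in the lists other than C4-2B replicate 1 and so entered no test.

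AKAP13 had 4 shared regions, more than any other of the 10 genes, with 3 of them at its 3′ end. Exon 7 held 52.2 to 68.6 IP CPM in C4-2B and 59.4 to 72.5 in MDV-R, and exon 35 held 39.8, 57.5, 52.5 and 50.95 against 63.3, 55.2, 58.4 and 69.2. The region in exon 36 held 36.5, 36.7, 38.6 and 32.4 in C4-2B and 42.2, 49.9, 53.6 and 46.85 in MDV-R, without overlap. Its centred difference of 0.33 (SE 0.13) missed the threshold (limma, adjusted p = 0.052) and passed by limma without C4-2B replicate 1 (adjusted p = 0.00676) and with quantile normalization (adjusted p = 0.0499), with up to 0.128 in the other alternatives. The region in the 3′ UTR, with its summit 257 nt after the last coding base, held 66.3, 87.2, 89.0 and 90.3 in C4-2B and 75.5, 85.0, 88.6 and 97.0 in MDV-R, with a difference of -0.02 (SE 0.08). It had the highest mean fold enrichment of the 12 shared regions in each line. The mean was 19.8 ± 6.24 (SD, n = 4) for C4-2B and 29.0 ± 11.5 (SD, n = 4) for MDV-R, and the values overlapped. Annotated genes without a symbol lie on the opposite strand across this summit and across that of exon 7. As the lists carry no strand, their signal cannot be told apart from that of AKAP13 there. An intronic AKAP13 region called in 4 C4-2B lists and 1 MDV-R list lay on the pseudogene FABP5P9, where reads can come from the parent gene. Without MDV-R replicate 3 it would join PRKACB as a region of C4-2B lists alone.

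CREB1 had 9 called regions, the most of the 10 genes. The main region lay in the last exon 44 nt after the last coding base, chr2:207596632 onward, and contained GGAC 1 nt from its summit. It held 78.7, 103, 109 and 130 IP CPM in C4-2B and 109, 113, 122 and 114 in MDV-R, with a centred difference of 0.06 (SE 0.07, limma, adjusted p = 0.553). An intron 7 region was also called in all 8 lists, at 11.8 to 24.3 CPM in C4-2B and 12.7 to 20.1 in MDV-R. Of the other 7 CREB1 regions, 5 were called in 1 to 3 MDV-R lists and no C4-2B list, a pattern whose share over the 10 genes is near that of all regions, as given above. Of these 5, the intron 6 region was called in the most lists, with 3 MDV-R lists. It held 35.5, 29.8 and 29.0 CPM in replicates 1, 2 and 4, with a fold enrichment of 7.13, 7.52 and 10.9. METTL21A on the opposite strand overlaps CREB1 from intron 7 to the 3′ end. As the lists carry no strand, signal of these 2 genes cannot be told apart there.

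Across the genes, the 4 shared 3′ UTR regions had their strongest summit 16, 44, 109 and 257 nt after the last coding base, in PRKAR2A, CREB1, PRKAR1B and AKAP13. Over all genes, 56.9% of 1933 placements of shared regions in 3′ UTRs lay within 300 nt of it, with a median of 239 nt. GGAC was present within 50 nt of the summit in 44.8% ± 11.2 (SD over 8 lists, 148 peaks in all) of exonic peaks in the 10 genes, beside 46.8% ± 1.098 of all exonic peaks. On the opposite strand the shares were 28.4% and 27.6%, and in windows 300 nt from the summit they were 22.9% and 28.9%. Of intronic peaks in the 10 genes 21.2% ± 13.2 held GGAC on the strand of the gene (60 peaks in all), beside 36.1% ± 0.938 of all intronic peaks, and 39.96% held it on the opposite strand, beside 29.4%. By region, 10 of 22 exonic, 4 of 17 intronic and 7 of the 12 shared regions held it at the strongest summit. The intronic PRKACB region was not among them, since its nearest GGAC reached past the window. It held 1 match within the window to DRACH, the wider motif in which D is A, G or T, R is A or G and H is A, C or T. DRACH was near 91.1% of exonic summits in the 10 genes and 89.5% of all exonic summits, so it separates little.

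The 11 shared regions outside PRKACB were tested between the lines in 3 fits over all 9327 regions that every list called. For fold enrichment none of the 11 passed in either direction (limma, adjusted p under 0.05, with 0 of 11 also at an unadjusted p under 0.05). Of all regions, 0.847% were higher and 1.79% lower in MDV-R. Without centring the split of these calls turned, from 79 higher and 167 lower to 318 and 21, and the median over all regions moved from 0.03 to 0.44 on the log2 scale. None of the 11 passed there either, with 4 at an unadjusted p under 0.05. For IP signal 1 was higher, in PRKAR1B, and 3 were lower, in PRKAR2A and AKAP9, beside 23.3% and 27% of all regions. For local background none was higher and 1 lower, in AKAP9, beside 5.95% and 6.86%. The median centred difference of the 11 was 0.28 for enrichment, -0.02 for IP signal and -0.19 for background, against 0.03, -0.02 and 0.01 over all regions. The calls in these genes were in IP signal and background, and none was in the ratio. IP signal alone is not corrected for transcript amount, so its calls are not read as changes in methylation. In simulated data with the spread of these lists, enrichment changes of 1 on the log2 scale were recovered in 38% of cases and changes of 2 in 93%, so a moderate change in enrichment could be missed.

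**Figure D4:**
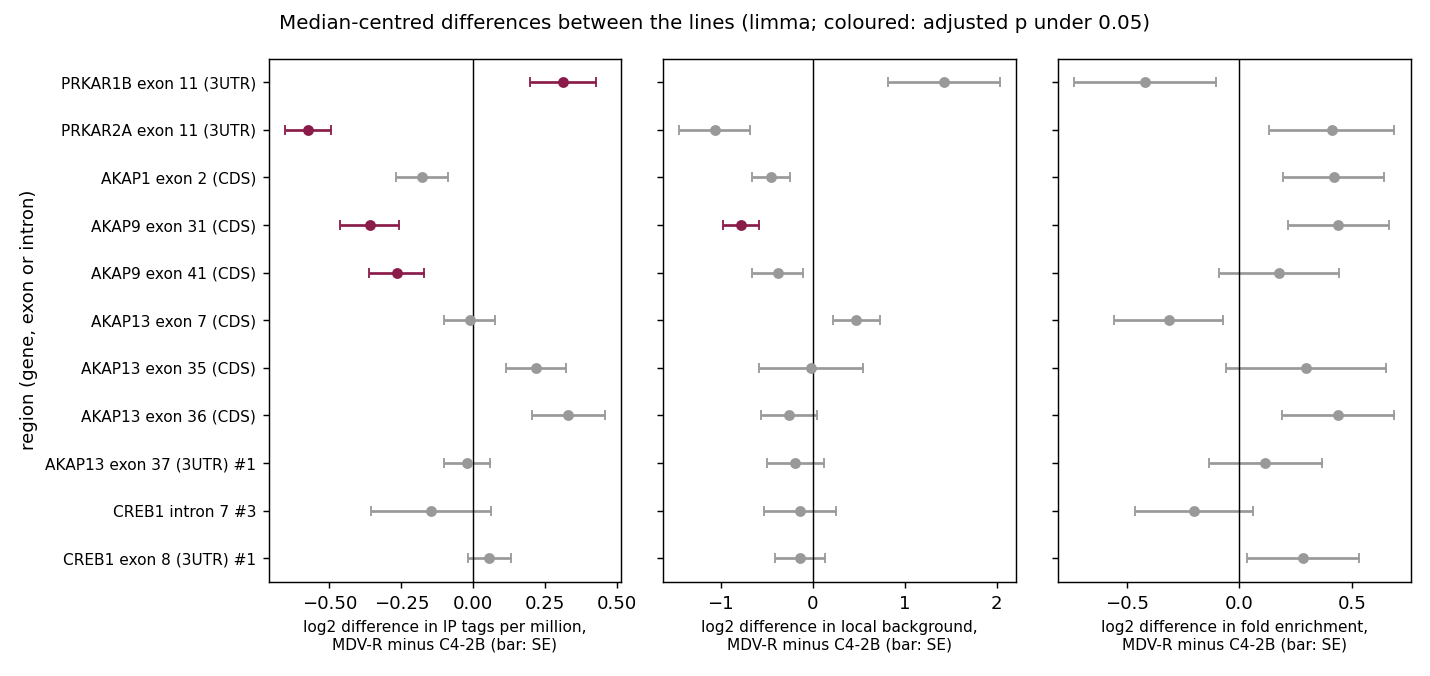
Log2 difference between the lines (MDV-R minus C4-2B, centred on the median of each list) in IP CPM, local background and fold enrichment for the 11 tested regions, with the limma standard error as bars and colour where the adjusted p was under 0.05. Coloured points are PRKAR1B, PRKAR2A and both AKAP9 regions for IP signal and AKAP9 exon 31 for background, and none for enrichment.

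The wider cAMP pathway gave the setting. Of 59 other genes of the pathway, 41 held a called region and 27 a region shared by all 8 lists. Among all protein-coding genes, 11392 of 20033 held a merged region, called or not. The share of all genes with a region shared by all 8 lists was not taken. The pathway counts are a description. By role, called regions were found in 13 of 18 other anchors, 10 of 14 adenylyl cyclases and G proteins, 8 of 11 phosphodiesterases, 7 of 9 transcription factors and coactivators, 1 of 3 PKA inhibitors, 1 of 2 other kinases and 1 of 2 other cAMP effectors. Of their 149 called regions, 2 were called in the 4 C4-2B lists and in no MDV-R list and 6 in the 4 MDV-R lists alone. These counts lay near the 1.22% and 3.68% of all called regions and are given as a description. Both C4-2B regions lay in introns of PDE4D, a cAMP phosphodiesterase, at chr5:59306978-59308189 with a mean -log10 q of 47.9 and at chr5:59399197-59399795 with 17.4. These were stronger calls than the intronic PRKACB region. The MDV-R regions lay in PRKX, a kinase related to the PKA catalytic subunits (a pair of regions), the inhibitory G protein gene GNAI1, the phosphodiesterase genes PDE3B and PDE10A, and the coactivator gene CREBBP, with mean -log10 q from 10.3 to 33.1.

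None of the 40 shared pathway regions passed for enrichment in either direction by limma, while 6 had an unadjusted p under 0.05. Among regions with lower values in MDV-R, the adjusted p was smallest in PDE4A with a log2 difference of -0.86 (SE 0.27, limma, adjusted p = 0.0983), PALM2AKAP2 with -0.64 (SE 0.23, limma, adjusted p = 0.141), RAPGEF3 with -0.85, PDE4B with -0.75 and ADCY3 with -0.42. In the other direction it was smallest in ATF1 with 0.63 (SE 0.27, limma, adjusted p = 0.22), ADCY7 with 0.49, CRTC3 with 0.43, GNAI3 with 0.30 and PDE7A with 0.33. For IP signal 15 of the 40 pathway regions were higher in MDV-R and 6 lower, where 23.3% and 27% of all tested regions were. For background 7 of the 40 were higher and 1 lower, where 5.95% and 6.86% of all tested regions were.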

How the data were processed

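m6A was profiled by MeRIP-seq in 8 IP and 8 input libraries from a stranded kit. Per the labels and the methods, reads were mapped by the authors with STAR 2.7.0 (hg38, GENCODE v39), filtered to unique reads without duplicates (SAMtools 1.10) and used to call peaks of each IP over its input with MACS2 3.0.0a6 (100 nt extension, genome size 300 Mb). The deposited lists give fold enrichment (a ratio), -log10 p and -log10 q, an integer score (10 times -log10 q) and positions in bp with a summit offset. How the authors merged the deposited region list is not given in the sources used here, and it holds no values. Counts and the authors' differential tests were not used here. Whole IP tags and local background were solved from fold enrichment and p (99.5% to 100% of peaks, tolerance 0.002, against 1.60% to 5.43% with a wrong scale). The recovery returned the true tags for 99.9% to 100% of solved simulated peaks. In the deposited values the deeper library of each IP and input pair had been scaled to the shallower, so a background from shallow input is coarse. Genes followed GENCODE v44, with MANE Select as representative transcript. Values of the strongest peak per region were compared on log2 by limma 3.58.1 (R 4.3.3) in regions called in all 8 lists, centred on each list's median, with Benjamini-Hochberg adjustment over 9327 regions. Intervals on tags would cover counting error only, and none are given. Regions called in all lists, or in 3 or more lists of 1 line but never in the other, were described singly. Their IP signal is given per list or as a range, and background and fold enrichment for some of them. Pathway genes were named by line-specific regions and by the 5 smallest adjusted p per direction. Members and lists were chosen with earlier results of these data known. Alternatives covered thresholds, list size, overlap, centring, transcripts, motif, replicate block and left-out lists.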

Additional observations from a re-analysis of the deposited data

Results flagged for a closer look

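In 6 of 73 groups of 4 lists a value stood far from the other 3 by Dixon's test, which flags about 1 group in 20 by chance. MDV-R replicate 3, with the shallowest MDV-R input, had a fold enrichment of 4.98 in AKAP1 exon 2 (others 8.93 to 9.35). Its background was 56.3 in AKAP9 exon 41 (others 14.2 to 16.1) and 28.2 in AKAP13 exon 7 (others 16.1 to 18.1). C4-2B replicate 1, the list with the fewest peaks, had 19.9 IP CPM in the PRKACB 5′ region (others 30.01 to 31.3) and 66.3 in the AKAP13 3′ UTR (others 87.2 to 90.3). C4-2B replicate 2 had a fold enrichment of 30.5 in AKAP13 exon 35 (others 7.15 to 9.21).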

How the results depend on the processing

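The intronic PRKACB region rested on 11 to 19 IP tags a list, and a level below the calling threshold has no value in these lists. The number of regions in the 10 genes called in any list, and in all lists, stayed within 1.5 times of the main value under every alternative. Regions called in the 4 C4-2B lists alone were 0 with a -log10 q of at least 5 and 0 with lists of equal size, in which 2 C4-2B lists called the PRKACB region, and ranged from 1 to 2 with each replicate left out. The reverse pattern ranged from 0 to 1, with CREB1 regions of introns 7 and 6 added without C4-2B replicate 3 and without MDV-R replicate 3. Exonic regions numbered 19 with a single transcript per gene and 22 otherwise.

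Over all regions, enrichment calls were 318 higher and 21 lower without centring and 49 and 104 where the 8 summits lay within 200 nt, a test of fewer regions. With each replicate left out they ranged from 22 to 121 higher and from 71 to 284 lower, with most calls without MDV-R replicate 3. Background calls over all regions, again with each replicate left out, ranged from 311 to 493 higher and from 386 to 493 lower. Among the 11 regions, IP calls were 2 higher and 2 lower with quantile normalization, in which AKAP13 exon 36 passed and AKAP9 exon 41 did not. With a replicate left out, the higher count ranged from 0 to 1, and the lower background count from 0 to 1. That background call, in AKAP9 exon 31, was also lost with quantile normalization, at 0.

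Replicate numbers were taken to name libraries only. Same-numbered deviations correlated at -0.07 to 0.04 over the 3 fits, so the numbers did not pair the lists. With the replicate block the PRKAR1B call was lost, leaving 0 higher for IP signal, and background calls were 0 among the 11 and 385 lower over all regions.

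Direction turned in 16 region values that had not passed. For enrichment, AKAP13 exon 7 was 0.087 without centring and 0.19 with the widest peak. CREB1 intron 7 was 0.20 without centring and ranged from -0.39 to 0.016 with replicates left out. With replicates left out, IP signal ranged from -0.063 to 0.060 in AKAP13 exon 7, from -0.084 to 0.016 in the AKAP13 3′ UTR and from -0.32 to 0.0046 in CREB1 intron 7. Background then ranged from -0.58 to 0.36 in AKAP13 exon 35 and from -0.48 to 0.079 in CREB1 intron 7, and was 0.0078 in the CREB1 3′ UTR with quantile normalization. GGAC shares became 91.1% exonic and 79.9% intronic with DRACH, and 26.6% exonic within 25 nt. The causes of these changes were not tested.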

Other observations

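The deposited lists held 3 peaks in these genes that overlapped no merged region. They were a coding peak of PRKAR1B in MDV-R replicate 4 with 7 IP tags, an intronic peak of AKAP1 in MDV-R replicate 4 with 25 tags and a fold enrichment of 6.01, and an intronic peak of AKAP13 in C4-2B replicate 2 with 8 tags. The merged list in turn held 1 region at the 5′ end of PRKAR2A that no list called.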
